A study of Arabidopsis thaliana with 8 samples.

Results

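The nuclear pore complex genes of *Arabidopsis thaliana* described here are 30 loci that encode nucleoporins together with the pore-associated proteins HOS1, NUA and GLE1. They were chosen by locus identifier from what their proteins are, and all 30 had values among the 23050 loci with values in the deposited RNA-seq table. RNA was sequenced from leaves of 6-week-old plants of the Columbia wild type (WT) and of *kaku4*, with 3 independent biological replicates per genotype. The mutant is 1 line, called *kaku4*-2 in the labels and *kaku4* in the paper, which carries a T-DNA insertion in *KAKU4* throughout the plant, and neither genotype received a treatment. KAKU4 is a plant protein of the nuclear lamina, the protein layer that lies under the inner nuclear membrane and touches the nuclear pores. The comparison asked how transcript levels in leaves of this age differ when KAKU4 is reduced. According to the paper, *kaku4* plants at this age already had some yellow leaves and less chlorophyll than WT. The stage of the leaf and the reduction of KAKU4 therefore cannot be told apart here.

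The nuclear pore complex is the channel through which proteins and RNA pass the nuclear envelope. An outer ring (the Y-complex) coats the membrane on each face, an inner ring lines the membrane, and a few membrane proteins anchor the structure. Nucleoporins with phenylalanine-glycine (FG) repeats fill the channel and bind the importins and exportins that carry cargo. Filaments on the cytoplasmic face and a basket on the nuclear face complete the pore, and both serve the export of mRNA. In Arabidopsis, loss of single nucleoporins is known to alter flowering time, hormone responses, immunity and the shape of the nucleus.

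The promoters of these genes were read first, since the genes of 1 complex can share short upstream elements. Site II elements (TGGGCC or TGGGCT on either strand) are known from promoters of plant genes used in growing cells. Such a match was found in the 250 bases before the annotated start of 13 of 30 pore genes (43.3%), against 19.1% of 27561 genes with the same window. A match is a description of letters and not of a bound site. The windows below show the last 120 bases before the start for the pore genes with at least 2 matches there and no overlap of the window with another gene, followed by both *NUP98* copies, which had no match. Capitals mark the site II letters, each window reads 5′ to 3′ on the strand of its gene, and the sequences and coordinates are those of RefSeq TAIR10.1.
SEC13B, chr2:12824252-12824371, plus strand: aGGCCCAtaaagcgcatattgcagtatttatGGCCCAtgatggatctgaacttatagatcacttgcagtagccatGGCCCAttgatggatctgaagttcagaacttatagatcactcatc
NUP35, chr3:5528603-5528722, minus strand: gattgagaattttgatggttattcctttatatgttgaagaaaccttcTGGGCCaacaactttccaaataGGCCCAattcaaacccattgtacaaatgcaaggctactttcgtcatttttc
NUP214, chr1:20743189-20743308, minus strand: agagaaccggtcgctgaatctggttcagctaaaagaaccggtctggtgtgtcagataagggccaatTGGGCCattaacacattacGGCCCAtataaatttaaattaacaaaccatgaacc
NUP98A, chr1:3412875-3412994, minus strand: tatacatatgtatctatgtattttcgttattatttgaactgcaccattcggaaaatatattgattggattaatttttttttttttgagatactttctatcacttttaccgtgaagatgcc
NUP98B, chr1:21923866-21923985, plus strand: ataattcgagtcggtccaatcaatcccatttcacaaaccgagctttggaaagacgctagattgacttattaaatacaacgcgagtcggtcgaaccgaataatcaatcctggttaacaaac
*SEC13B* carried 3 matches in its window, and *NUP35* and *NUP214* carried 2 each, on opposite strands. Both groups defined by their change in *kaku4* held these letters. They were present in 10 of the 20 genes called upregulated below and in 3 of the 10 not called. The promoters of *NUP98A* and *NUP98B*, both among the genes called, held none. Whether these letters go with the change in *kaku4* was not tested. The telo-box (AAACCCTA) was in 0 of 30 windows, against 4.47% of all genes, and the E2F site (TTTCCCGC, TTTGGCGC or TTTCGCGC) also in 0, against 1.13%. The G-box (CACGTG) was in 3 windows (10%, against 6.46%) and the W-box (TTGACC or TTGACT) in 6 (20%, against 28.4%).

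Levels are given in FPKM, which scale the fragments of a gene to its length and to the size of the library, so that values of different genes are per length. Fragment counts per gene are not given, although the paper lists the total and mapped reads of each library. The precision of each level was therefore taken from the 3 libraries of a genotype alone. *KAKU4* (AT4G31430) itself stood at 6.41, 5.45 and 5.71 FPKM in WT and at 0.739, 1.26 and 0.943 FPKM in *kaku4*. The labelled leaf tissue was checked with 5 photosynthesis genes, which lay between 1385 and 26610 FPKM in the 6 libraries, whereas 3 floral organ genes stayed between 0 and 0.525 FPKM. Replicate 1 of both genotypes held more chloroplast signal than the other 4 libraries (30587 to 44363 against 499 to 945 summed FPKM). In bulk leaf RNA, more transcript per cell and more cells of a type with a high level cannot be told apart.

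Most pore genes had higher FPKM in *kaku4*. With limma on log2(FPKM + 0.1) and Benjamini-Hochberg adjustment over 20618 genes, 20 of the 30 were called upregulated (log2 fold change of at least 1 and adjusted p of at most 0.05), against 16.4% of all genes tested. None was called downregulated, where the background was 11.5%, and since no pore gene reached a log2 fold change of -1 the count is also 0 at an unadjusted p. Without the fold threshold, 25 were higher (28.6% of all genes) and 1, *NUP43*, was lower (28.3% of all genes). Every *kaku4* library lay above every WT library for 26 pore genes (33.5% of all genes), and below for 2, *NUP43* and *SEC13B* (31.3% of all genes). The genotypes overlapped for *SEH1* and *SEC13A* only. The median log2 fold change of the 30 was 1.04, against 0.00 over all genes tested. Summed over the 30 genes, FPKM was 171.2, 171.3 and 174.5 in WT and 222.7, 275.4 and 232 in *kaku4*. The library totals also differed, with summed FPKM over all loci of 1412227 to 1559944 in WT and 953041 to 1188694 in *kaku4*.

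**Figure D1:**
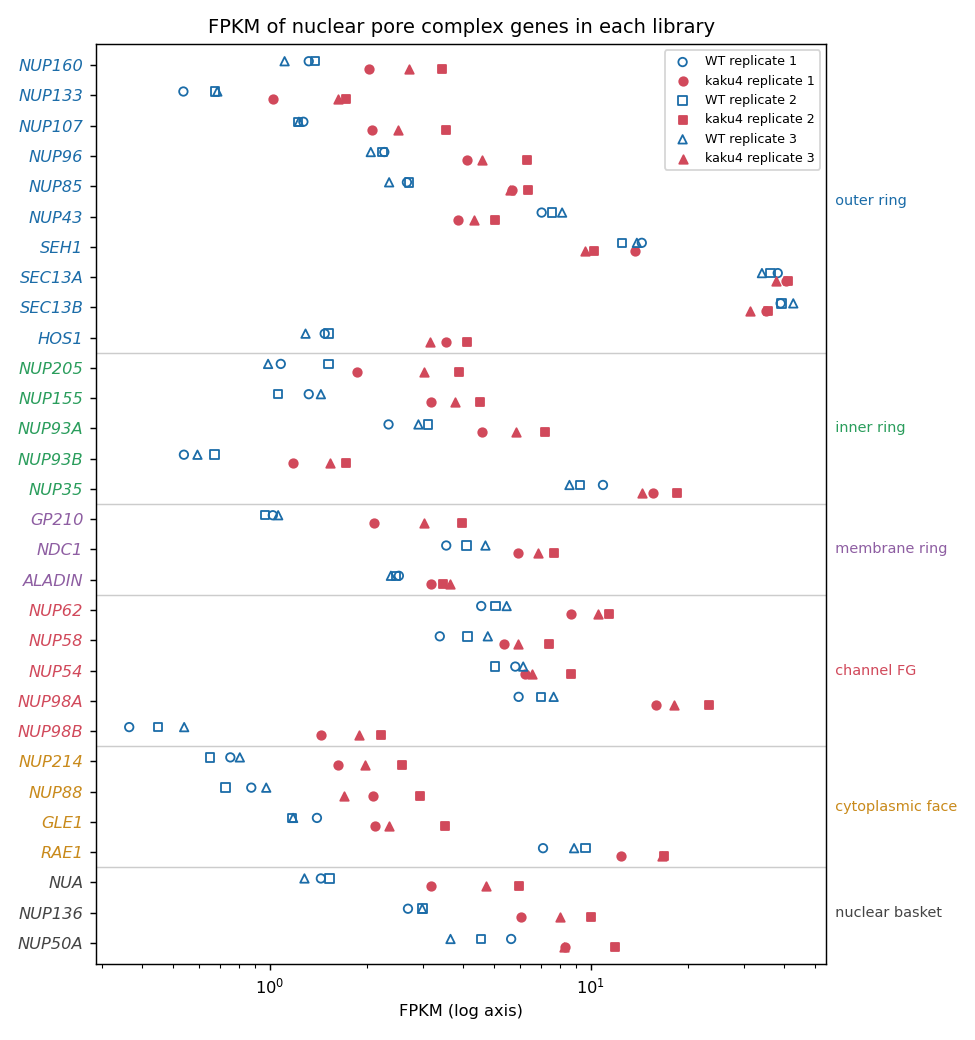
FPKM of the 30 nuclear pore complex genes (log axis) in each of 3 WT (open) and 3 *kaku4* (filled) libraries, with marker shapes for the replicate numbers and genes grouped by their place in the pore. The *kaku4* values lie to the right of the WT values for 26 genes, and replicate 2 of *kaku4* is the rightmost *kaku4* library for 28 of the 30.

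The levels of pore genes spread widely within 1 library although their proteins share 1 structure. In WT, 3 genes stood at 10 FPKM or more, 22 between 1 and 10, and 5 below 1. *SEC13B* was the highest (40.3 ± 2.11 FPKM, SD, n = 3), followed by *SEC13A* (36.2 ± 2.05) and *SEH1* (13.6 ± 0.998), and the lowest were *NUP98B* (0.451 ± 0.0878), *NUP93B* (0.601 ± 0.0665) and *NUP133* (0.632 ± 0.0817). The WT values of *SEC13B* and *SEC13A* did not overlap, whereas *NUP93B* and *NUP133* overlapped with each other and were not separated. The order of the genes was close in both genotypes, with a Spearman correlation of 0.94 between mean levels over the 30 genes, which share libraries.

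The fold changes followed transcript length, and this has to stand beside every rise described here. Across all 20464 genes with a RefSeq transcript length, the log2 fold change and length had a Spearman correlation of 0.59, and over the 30 pore genes it was 0.84. The median pore transcript has 2816 nucleotides (range 1232 to 6657), against 1688 for all genes tested. Of the pore genes, 19 fall in the 2 longest length deciles, and all 19 were called upregulated. In these deciles 47.3% of all 4090 genes were called upregulated, with a median log2 fold change of 0.98. Of the 11 shorter pore genes only *NUP50A* was called, where 8.72% of the 16374 other genes were, and their median log2 fold change was 0.46, against -0.25. These 2 backgrounds do not match the pore genes fully in length. Of the 19 longer pore genes, 14 lie in the longest decile, where 61.6% of all genes were called. Deciles 1 and 2, with medians of -0.85 and -0.79, hold 0 pore genes.

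**Figure D2:**
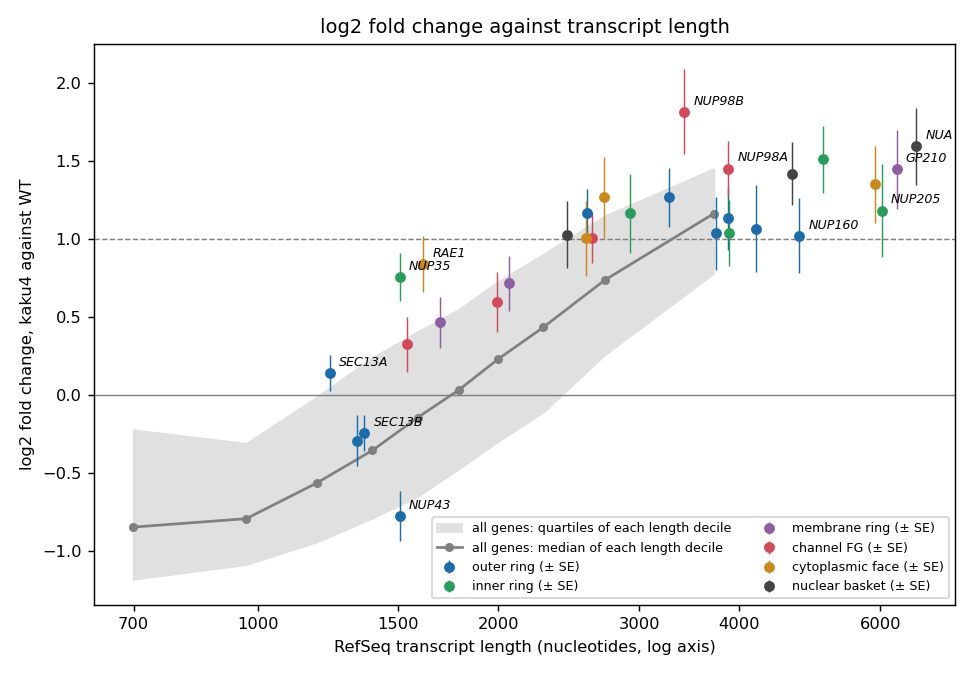
Log2 fold change of *kaku4* against WT (± SE for the pore genes) against RefSeq transcript length in nucleotides (log axis), with the median and quartiles of all genes in each length decile in grey. The 19 longest pore genes lie at a log2 fold change above 1, where the decile medians also climb from -0.85 for the shortest to 1.16 for the longest transcripts, and *NUP43* lies below 0.

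When the length trend was removed from each library with a lowess curve, which also removes any real change that follows length, 0 of the 30 pore genes were called upregulated (7.77% of all genes) and 0 downregulated (5.21%), as no pore gene then reached a log2 fold change of 1 in either direction. Without the fold threshold, 8 were then higher (20.2% of all genes), namely *NUP85*, *SEC13A*, *NUP35*, *NDC1*, *ALADIN*, *NUP62*, *NUP98B* and *RAE1*, and *NUP43* was still lower (20% of all genes). The median log2 fold change of the 30 became 0.35. *NUP160*, *NUP133*, *NUP107*, *NUP205*, *NUP93A*, *GP210* and *NUP214* changed sign from positive to negative, and *SEH1* and *SEC13B* from negative to positive. How much of each rise came with length and how much with the genotype was not tested. Below, each group of pore genes is given on the deposited values first and then with the length trend removed.

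**Figure D3:**
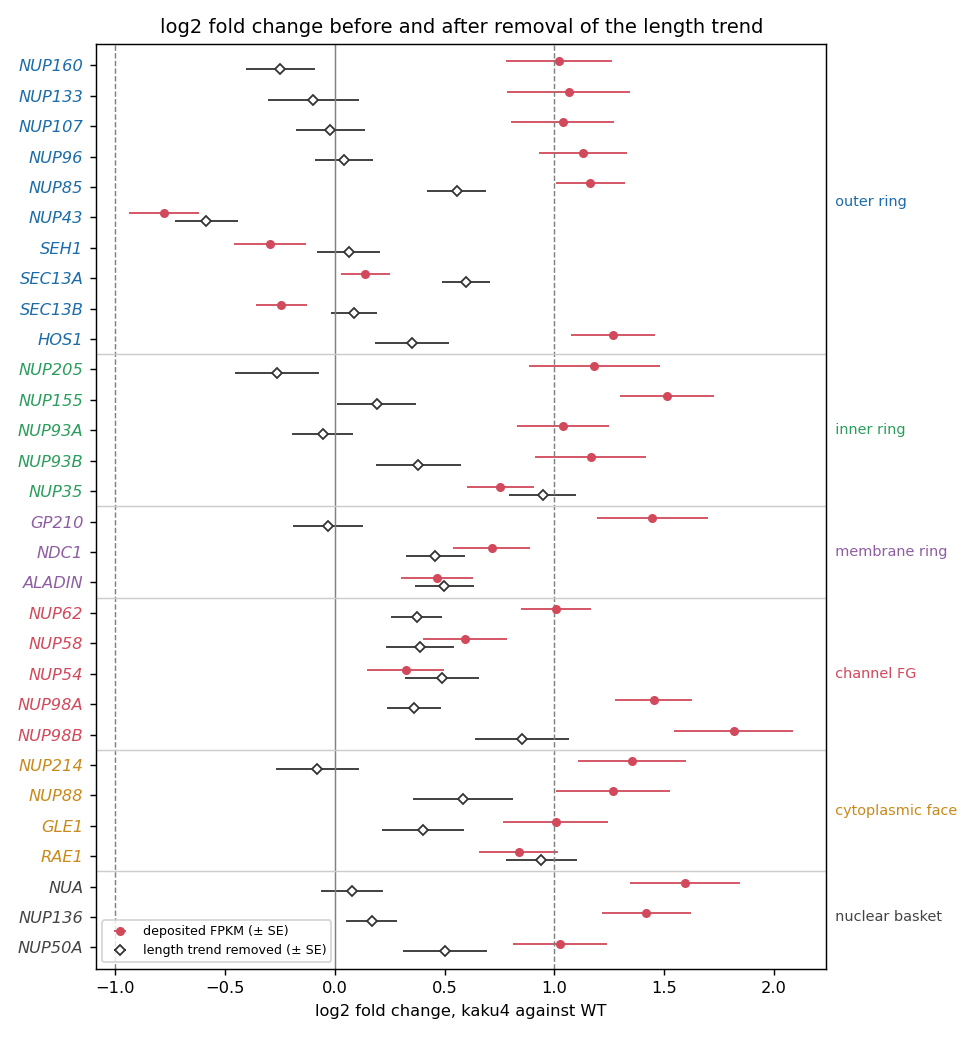
Log2 fold change of *kaku4* against WT (± SE, 3 libraries per genotype) for the 30 pore genes on the deposited FPKM (circles) and after removal of the length trend (open diamonds), with dashed lines at -1 and 1. The circles of 20 genes lie past 1, whereas no diamond does, and *NUP43* is the gene that stays clearly below 0 in both.

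On the deposited values, the outer ring held genes that rose, with transcripts of 2578 to 4756 nucleotides, and shorter genes that did not (1232 to 1507 nucleotides). With the length trend removed the groups overlapped, with log2 fold changes from -0.25 to 0.55 in the first and from -0.59 to 0.60 in the second. *NUP160* (AT1G33410), *NUP133* (AT2G05120), *NUP107* (AT3G14120), *NUP96* (AT1G80680), *NUP85* (AT4G32910) and *HOS1* (AT2G39810) were called upregulated, with log2 fold changes from 1.02 (SE 0.24) in *NUP160* to 1.27 (SE 0.19) in *HOS1*. Of all genes tested, 16.4% were called. NUP160 and NUP96 are known in Arabidopsis from mutants with altered auxin response, and NUP96 also from plant immunity. *NUP160* had 1.32, 1.38 and 1.11 FPKM in WT and 2.03, 3.43 and 2.71 FPKM in *kaku4*. *NUP96* had 2.27, 2.24 and 2.06 FPKM in WT and 4.11, 6.31 and 4.59 FPKM in *kaku4*. For both, the lowest mutant library was well above the highest WT library. *NUP107* went from 1.27, 1.22 and 1.23 to 2.08, 3.53 and 2.5 FPKM, and *NUP133*, the least abundant gene of this ring, from 0.537, 0.673 and 0.685 to 1.02, 1.73 and 1.63 FPKM. In each of these 4 genes replicate 2 of *kaku4* was the highest library and replicate 1 the lowest of the mutant, a spread that was wider than that of WT. *NUP85*, a scaffold subunit, was tighter, with 2.67, 2.71 and 2.35 FPKM in WT and 5.69, 6.37 and 5.61 FPKM in *kaku4* (log2 fold change 1.16, SE 0.16, limma adjusted p = 7.0e-04). *HOS1*, a RING-finger E3 ubiquitin ligase of the pore that acts in cold response and flowering, had 1.48, 1.52 and 1.29 FPKM in WT and 3.53, 4.1 and 3.14 FPKM in *kaku4*.

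The 4 short β-propeller genes of the outer ring behaved differently on the deposited values. *NUP43* (AT4G30840), which encodes a WD40 protein, fell from 7.02, 7.55 and 8.13 FPKM in WT to 3.84, 5.03 and 4.31 FPKM in *kaku4* (log2 fold change -0.78, SE 0.16, limma adjusted p = 0.00376). Its mutant mean was 0.58 of the WT mean, the genotypes did not overlap, and with the length trend removed the value was -0.59 (adjusted p = 0.0144). It was the single pore gene below WT in both forms of the test. *SEH1* (AT1G64350) had 14.4, 12.5 and 13.9 FPKM in WT and 13.7, 10.2 and 9.59 FPKM in *kaku4*, so that replicate 1 of the mutant lay within the WT range, and its log2 fold change of -0.29 (SE 0.16) did not pass the test. *SEC13A* (AT3G01340) and *SEC13B* (AT2G30050) encode a protein that also builds the COPII coat of secretory vesicles. *SEC13A* had 38.2, 36.3 and 34.1 FPKM in WT and 40.5, 41.2 and 37.8 FPKM in *kaku4*, which overlap. *SEC13B* had 39, 39.2 and 42.7 FPKM in WT and 35.2, 35.6 and 31.3 FPKM in *kaku4*, with no overlap but a log2 fold change of only -0.24 (SE 0.12, limma adjusted p = 0.106). With the length trend removed, *SEC13A* passed the test at 0.60 (adjusted p = 0.00467), whereas *SEC13B* (0.09) and *SEH1* (0.06) did not. Over the 10 genes of this ring the median log2 fold change was 1.03 on the deposited values and 0.05 with the length trend removed.

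In the inner ring, 4 of 5 genes were called upregulated (16.4% of all genes tested) and all 5 were higher without the fold threshold (28.6%). Of the called genes, *NUP205*, *NUP155* and *NUP93A* lie in the longest length decile, where 61.6% of all genes were called. *NUP155* (AT1G14850), whose protein links the inner ring to the membrane, showed the largest change of the ring, from 1.32, 1.06 and 1.44 FPKM in WT to 3.17, 4.5 and 3.78 FPKM in *kaku4* (log2 fold change 1.51, SE 0.21, limma adjusted p = 8.3e-04). *NUP205* (AT5G51200), the gene of a large scaffold protein, had 1.08, 1.52 and 0.986 FPKM in WT and 1.86, 3.87 and 3.02 FPKM in *kaku4*. Its mutant libraries were spread over a wide range, and its SE of 0.30 was the largest among the 30 genes. *NUP93A* (AT2G41620) had 2.34, 3.11 and 2.9 FPKM in WT and 4.59, 7.19 and 5.85 FPKM in *kaku4*, and its copy *NUP93B* (AT3G57350) had 0.539, 0.671 and 0.594 FPKM in WT and 1.18, 1.72 and 1.54 FPKM in *kaku4*. NUP93 holds the channel nucleoporins to the inner ring. Neither copy overlapped between genotypes, with log2 fold changes of 1.04 and 1.16. *NUP35* (AT3G16310), which encodes a small membrane-binding nucleoporin, had 10.9, 9.26 and 8.57 FPKM in WT and 15.6, 18.6 and 14.4 FPKM in *kaku4*, and its log2 fold change of 0.75 (SE 0.15, limma adjusted p = 0.0037) stayed under the fold threshold. It had the largest value of the 30 genes once the length trend was removed (0.95, adjusted p = 0.00263). The other 4 then lay between -0.26 and 0.38 and did not pass the test.

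Of the membrane nucleoporins, 1 was called (16.4% of all genes tested) and all 3 were higher without the fold threshold (28.6%). *GP210* (AT5G40480) encodes a large glycoprotein with a single membrane span and had 1.02, 0.964 and 1.06 FPKM in WT and 2.11, 3.95 and 3.01 FPKM in *kaku4*. The WT libraries were almost equal while the mutant libraries differed among themselves, with a log2 fold change of 1.45 (SE 0.25). *NDC1* (AT1G73240), the gene of a conserved multi-span anchor, had 3.54, 4.09 and 4.69 FPKM in WT and 5.91, 7.65 and 6.82 FPKM in *kaku4* (log2 fold change 0.71, SE 0.17). *ALADIN* (AT3G56900), whose human counterpart is mutated in triple A syndrome, showed the smallest of these changes, from 2.52, 2.47 and 2.38 to 3.18, 3.46 and 3.63 FPKM (log2 fold change 0.46, SE 0.16, limma adjusted p = 0.0386). After the length trend was removed, *GP210*, with a transcript of 6292 nucleotides, was at -0.03, whereas *NDC1* (0.46) and *ALADIN* (0.50) were close to each other and passed the test.

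Among the FG nucleoporins of the channel, *NUP62*, *NUP98A* and *NUP98B* were called upregulated, *NUP58* was higher without the fold threshold and *NUP54* did not pass the test. Of all genes tested, 16.4% were called and 28.6% were higher. NUP62, NUP58 and NUP54 form 1 complex in the centre of the channel. *NUP62* (AT2G45000) had 4.55, 5.04 and 5.46 FPKM in WT and 8.67, 11.4 and 10.5 FPKM in *kaku4* (log2 fold change 1.01, SE 0.16). *NUP58* (AT4G37130) had 3.38, 4.13 and 4.77 FPKM in WT and 5.36, 7.38 and 5.94 FPKM in *kaku4* (log2 fold change 0.59, SE 0.19). *NUP54* (AT1G24310) had 5.81, 5.03 and 6.15 FPKM in WT and 6.22, 8.69 and 6.57 FPKM in *kaku4*, so the genotypes were separated by a small gap (log2 fold change 0.32, SE 0.18, limma adjusted p = 0.147). The levels of these 3 genes in WT lay within a narrow band. In the form without the length trend their log2 fold changes were close, at 0.37 for *NUP62*, 0.39 for *NUP58* and 0.49 for *NUP54*, of which *NUP62* passed the test.

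*NUP98A* and *NUP98B*, copies that act together in the control of flowering in Arabidopsis, gave some of the largest changes. *NUP98A* (AT1G10390) had 5.95, 7 and 7.65 FPKM in WT and 15.9, 23.3 and 18.1 FPKM in *kaku4* (log2 fold change 1.45, SE 0.18, limma adjusted p = 5.0e-04). *NUP98B* (AT1G59660), with the lowest mean of the pore genes in WT but not in *kaku4*, had 0.364, 0.448 and 0.54 FPKM in WT and 1.44, 2.21 and 1.89 FPKM in *kaku4*. Its mutant mean was 4.1 times the WT mean, and its log2 fold change of 1.82 (SE 0.27) was the largest of the 30. After the length trend was removed its value was 0.85 (adjusted p = 0.0161), where *NUP98A* was at 0.36 and just missed the test (adjusted p = 0.0505).

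On the cytoplasmic face, *NUP214* (AT1G55540), *NUP88* (AT5G05680) and *GLE1* (AT1G13120) were called upregulated (16.4% of all genes tested). *RAE1* (AT1G80670) was higher without the fold threshold (28.6% of all genes). NUP214 and NUP88 form the platform on which exported mRNA is released, and NUP88 is known in Arabidopsis for its part in immunity. *NUP214* had 0.752, 0.651 and 0.805 FPKM in WT and 1.63, 2.57 and 1.98 FPKM in *kaku4* (log2 fold change 1.35, SE 0.25). *NUP88* had 0.874, 0.727 and 0.973 FPKM in WT and 2.1, 2.94 and 1.7 FPKM in *kaku4* (log2 fold change 1.27, SE 0.26). Here replicate 3 was the lowest mutant library, in contrast to *NUP214*. *GLE1*, whose protein activates the RNA helicase LOS4, had 1.4, 1.17 and 1.18 FPKM in WT and 2.13, 3.5 and 2.35 FPKM in *kaku4*, and its log2 fold change of 1.005 (SE 0.24) was just past the fold threshold. *RAE1*, an mRNA export factor that binds NUP98, had 7.09, 9.63 and 8.86 FPKM in WT and 12.4, 16.9 and 16.7 FPKM in *kaku4* (log2 fold change 0.84, SE 0.18). Of these genes only *RAE1* passed the test with the length trend removed (0.94, adjusted p = 0.0035), with *NUP88* at 0.58, *GLE1* at 0.40 and *NUP214* at -0.08. *RAE1* and *NUP96* are neighbours on chromosome 1 that point away from each other, with annotated starts that overlap by 21 bases, and both were higher in *kaku4*.

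All 3 genes of the nuclear basket, the side of the pore that faces the lamina, were called upregulated (16.4% of all genes tested). *NUA* and *NUP136* lie in the longest length decile, where 61.6% of all genes were called. *NUA* (AT1G79280), whose large coiled-coil protein builds the basket filaments, had 1.44, 1.53 and 1.28 FPKM in WT and 3.17, 5.98 and 4.71 FPKM in *kaku4* (log2 fold change 1.59, SE 0.25). *NUP136* (AT3G10650), a plant-specific basket nucleoporin that influences nuclear shape, had 2.69, 2.99 and 2.98 FPKM in WT and 6.06, 10 and 8 FPKM in *kaku4* (log2 fold change 1.42, SE 0.20, limma adjusted p = 8.6e-04). *NUP50A* (AT1G52380), which encodes a Ran-binding basket protein, had 5.64, 4.55 and 3.65 FPKM in WT and 8.3, 11.9 and 8.26 FPKM in *kaku4* (log2 fold change 1.03, SE 0.22). The mutant libraries lay above the WT libraries in each case, and *NUP50A* had the largest relative spread in WT of the 3. With 6657 and 4659 nucleotides, *NUA* and *NUP136* have long transcripts, and without the length trend their log2 fold changes were 0.08 and 0.17. *NUP50A*, with 2438 nucleotides, was then at 0.50 (adjusted p = 0.0716), so none of the 3 passed.

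The mutant libraries did not contribute equally. Replicate 2 of *kaku4* was the highest mutant library for 28 of the 30 pore genes (41.9% of all genes tested), and replicate 1 was the lowest for 22 (44.4% of all genes). Within the mutant, the deviation of a gene from its mean followed transcript length in the same libraries, with Spearman correlations of 0.55 in replicate 2 and -0.47 in replicate 1 across genes, which are not independent replicates. When *kaku4* replicate 2 was left out, 11 pore genes stayed called upregulated (12.8% of all genes in that fit), and *NUP160*, *NUP133*, *NUP107*, *NUP96*, *NUP205*, *NUP93A*, *NUP62*, *GLE1* and *NUP50A* lost the call. With only replicates 2 and 3 of both genotypes, which leaves out the libraries with high chloroplast signal, the count was 20 (18.6% of all genes in that fit). Many calls lie close to a log2 fold change of 1, and with a pseudocount of 1 FPKM, which draws low values together, only *NUP155*, *NUP98A*, *NUA* and *NUP136* were called (8.45% of all genes).

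A ratio of copies within a library does not depend on how the library was scaled. *NUP98A* was 16.3, 15.6 and 14.2 times as abundant as *NUP98B* in WT and 11.1, 10.5 and 9.55 times in *kaku4*, a log2 difference of -0.57. For *NUP93A* and *NUP93B* the ratios were 4.34, 4.63 and 4.88 in WT and 3.88, 4.19 and 3.79 in *kaku4*, a log2 difference of -0.23. For *SEC13A* and *SEC13B* they were 0.98, 0.926 and 0.798 in WT and 1.15, 1.16 and 1.21 in *kaku4*, a log2 difference of 0.38, so that the more abundant copy was *SEC13B* in WT and *SEC13A* in the mutant. The genotypes did not overlap in any of the 3 pairs, and each two-sided exact permutation test of 3 against 3 libraries gave p = 0.1, the smallest it can give (0.1 after adjustment over 3 pairs). The transcripts of each pair share no identical run longer than 29, 35 and 32 bases, in the order above, with reads of 150 bases. The copies of a pair differ in length, and the part of length in these ratios was not tested.

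**Figure D4:**
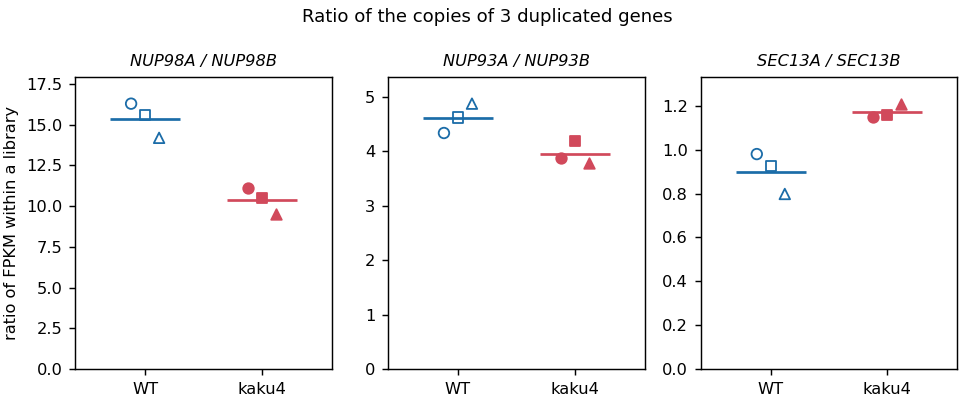
Ratio of the FPKM of the copies of *NUP98*, *NUP93* and *SEC13* within each library (linear axes from 0), with circles, squares and triangles for replicates 1, 2 and 3 and lines at the geometric mean of each genotype. The ratio is lower in every *kaku4* library for *NUP98A*/*NUP98B* and *NUP93A*/*NUP93B* and higher in every one for *SEC13A*/*SEC13B*.

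Genes that work with the pore were taken as lists of importins, exportins, the Ran cycle, mRNA export and other pore proteins. Of 56 listed genes 55 had values and 52 were tested, of which 15 were called upregulated (16.4% of all genes tested) and 0 downregulated (11.5%). The receptors that carry cargo have long transcripts, with medians of 4124 nucleotides for exportins and 3650 for the importin-β family, and median log2 fold changes of 1.00 and 0.97. All 7 exportins were higher without the fold threshold, and *XPO1A*, *XPO7*-like, *HST* and *PSD* were called, with log2 fold changes from 1.01 to 1.36, where 28.6% of all genes tested were higher. With the length trend removed, 0 exportins were higher and 1, *CAS*, was lower (-0.63), where 20.2% and 20% of all genes were. The median of the exportins was then -0.12. *XPO1A* (AT5G17020), the general export receptor, had 3.84, 5.09 and 4.64 FPKM in WT and 6.67, 11.5 and 9.89 FPKM in *kaku4*. HST and PSD are the exportins of microRNA and tRNA in Arabidopsis. *CAS*, the exportin that returns importin-α to the cytoplasm, stood at 0.47 on the deposited values. Of 11 genes of the importin-β family 9 were higher, with *SAD2H* (1.59), *IPO9*-like (1.33), *TRN1* (1.13) and *IMB1*-like (1.08) called, against the same 28.6%. Once the length trend was removed, 1 was higher, 0 were called and 5 (*KPNB1*, *SAD2*, *IMB4*, *KETCH1* and *MOS14*) were lower, where 20% of all genes were, with log2 fold changes from -0.93 to -0.37 and a median over the 11 of 0.02. *KPNB1* (AT5G53480), the partner of importin-α, had the highest WT mean of the family beside *KETCH1* (16.7 and 16.6 FPKM, not separated), with 12.3, 19 and 18.9 FPKM in WT and 15.5, 25 and 24.1 FPKM in *kaku4*, which overlap (limma adjusted p = 0.223). Of 6 importin-α genes tested only *IMPA3* was called (1.05), and *IMPA2* (AT4G16143), the most abundant, had 40.3, 43.3 and 46.7 FPKM in WT and 45.5, 51.1 and 44.2 FPKM in *kaku4*, which overlap. Of these 6 genes 3 were higher on the deposited values (28.6% of all genes). With the length trend removed, 2 were higher and 1 lower (20.2% and 20% of all genes).

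Of the 10 Ran cycle genes tested, most of them short and abundant, 0 were called, 3 were higher and 4 were lower without the fold threshold, where 28.6% and 28.3% of all genes were. With the length trend removed, 4 were higher and 0 lower (20.2% and 20% of all genes), and the median moved from -0.11 to 0.24. Ran is the small GTPase that gives transport its direction. *RAN3* (AT5G55190) fell from 286, 221 and 248 FPKM in WT to 192, 127 and 150 FPKM in *kaku4* (log2 fold change -0.70, SE 0.18), and *RAN2* (-0.47), *RANBP1B* (-0.85) and *NTF2B* (-0.97) were also among the lower ones, whereas *RAN1* (0.40), *RANBP1A* (0.38) and *RANGAP2* (0.84) were higher. None of the 4 lower genes passed the test without the length trend, where *RAN3* was at -0.13 and *RAN2* at 0.00. In mRNA export, the long genes *THO2* (1.61), *SAC3A* (1.57) and *SAC3B* (1.68) were called upregulated, and the abundant helicase genes *UAP56A* (-0.53) and *UAP56B* (-0.45) and the adaptors *ALY2* (-0.52) and *ALY4* (-0.70) were lower. *ALY1* (AT5G59950), with 147, 132 and 165 FPKM in WT and 129, 103 and 112 FPKM in *kaku4*, did not pass the test. Over the 14 mRNA export genes, 5 were higher and 4 lower on the deposited values (28.6% and 28.3% of all genes). Without the length trend, 2 were higher and 2 lower (20.2% and 20%). After removal of the length trend, 2 of the 52 tested were called upregulated (7.77% of all genes). Both are on the list of 4 other pore proteins, while 0 of the 30 pore genes above were called in that fit. They were *NUP50B* (AT3G15970), the copy of *NUP50A*, and *CG1* (AT1G75340), which encodes a small FG nucleoporin.

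*CG1* had 2.02, 2.02 and 2.22 FPKM in WT and 4.66, 7.61 and 6.23 FPKM in *kaku4*, and its log2 fold change was 1.49 (SE 0.21) on the deposited values and 1.52 after its trend with length was taken out (adjusted p = 9.0e-04). *NUP50B* had 2.26, 2.23 and 1.52 FPKM in WT and 4.81, 7.1 and 4.61 FPKM in *kaku4*, with log2 fold changes of 1.41 (SE 0.24) and 1.02 (adjusted p = 0.00745). In both genes the mutant libraries lay far above the WT libraries. The locus AT1G03830 on this list, annotated as a guanylate-binding family protein, was called on the deposited values only (1.11, then 0.07). Whether its protein belongs to the pore was not checked. *CPR5* (AT5G64930) encodes a membrane nucleoporin known in Arabidopsis from immunity and early senescence. It had 11.5, 11.7 and 10.9 FPKM in WT and 9.44, 10.2 and 10.2 FPKM in *kaku4* (log2 fold change -0.19, SE 0.12). This did not pass the test, whereas with the length trend removed *CPR5* was lower (-0.38, limma adjusted p = 0.0228).

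Some of these loci overlap another gene, and whether counting used strand is not stated. *NUP62* shares 1323 bases with AT2G44993 on the other strand, *NUP93A* 936 bases with AT2G41610, *NUA* 709 bases with AT1G79270 and *NUP98A* 269 bases with AT1G10395, and *NUP136* shares 219 bases with AT3G10660 on the same strand. These lengths run over whole loci with their introns. Reads from exons in the shared stretches could belong to either gene, and the FPKM of these 5 pore genes is uncertain to that extent. Shorter overlaps were found for other pore genes, such as 99 bases in *NUP93B* and 91 bases in *NUP54*, where the same holds.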

How the data were processed

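Total RNA of WT and *kaku4* leaves, sampled at 6 weeks, was sequenced with 150-base paired reads (3 libraries each). The authors aligned reads to TAIR10 with TopHat2 2.0.9 and deposited FPKM from Cufflinks for 24492 loci. Of these, 1442 carry a missing-value mark throughout and were left out. Because of the marks the deposited FPKM columns were recorded under a general unit. Counts being unknown, no count test was run. Genes averaging at least 0.1 FPKM (20618) entered limma 3.58.1 (R 4.3.3) as log2(FPKM + 0.1) with a mean-variance trend and no covariate, a scale that shrinks changes of low genes. An exact permutation test of 3 against 3 libraries cannot go under 0.1, so adjusted p values rest on the spread limma shares between genes. For the length trend, lowess curves (span 0.4) were fitted per library to deviations from gene means. Lengths, coordinates and promoter letters came from RefSeq TAIR10.1. Values were given in full for pore genes called, the 5 largest and smallest changes, the 3 highest and lowest levels, changed calls or signs and copies of a pair. Called and abundant transport genes were named, with values in full for a few. Besides the main test, 18 alternatives were run. Scripts were tested on simulated data. The members and lists were chosen with earlier results of these data known. The ChIP-seq samples were not analysed here.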

Additional observations from a re-analysis of the deposited data

How the results depend on the processing

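The 20 pore genes called upregulated stayed 20 with a pseudocount of 0.01 (16.8% of all genes in that fit). They also stayed 20 with no minimum FPKM (15%), a minimum of 1 (16.7%), no mean-variance trend (16.6%) and replicates 2 and 3 only (18.6%). The count was 4 with a pseudocount of 1 (8.45% of all genes in that fit) and 7 without the GC trend (12.5%). It was 9 with libraries centred on their median (11.2%), 6 with quantile normalization (12.3%) and 0 with the length trend removed (7.77%). Leaving out 1 library gave 11 to 20, where 12.8% to 18.3% of all genes were called. The cause of each change was not tested. Centring moved the median log2 fold change of all genes to -0.19. The median of the pore genes was 0.78 with a pseudocount of 1, 0.76 without the GC trend, 0.80 with quantile normalization and 0.35 without the length trend. Of the counts without the fold threshold, those higher were 8 with the length trend removed (20.2% of all genes). Those lower were 3 with the GC trend removed and with centring, where 5585 and 7174 of 20618 genes were. They were 2 with replicates 2 and 3 only (6159 of 20618), and 1 to 2 with 1 library left out (4703 to 6005). *NUP43* was called downregulated (count 1) with the GC trend removed, where 2054 of 20618 genes were. The transport genes called upregulated were 6 with a pseudocount of 1 (8.45% of all genes in that fit) and 2 without the length trend (7.77%). They were 9 without the GC trend (12.5%) and with centring (11.2%) and 7 with quantile normalization (12.3%). Those called downregulated were 2 with the GC trend removed and with centring, where 2054 and 3846 of 20618 genes were. With replicates 2 and 3 only there was 1 (3033 of 20618), and with 1 library left out 0 to 2 (1616 to 2994).

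Signs of the pore genes and of the called or abundant transport genes changed as follows. With the length trend removed, with or without the replicate block, log2 fold changes were -0.248 for *NUP160*, -0.098 for *NUP133*, -0.020 for *NUP107*, -0.263 for *NUP205*, -0.054 for *NUP93A*, -0.030 for *GP210*, -0.079 for *NUP214*, 0.063 for *SEH1*, 0.086 for *SEC13B*, -0.12 for *XPO1A*, -0.63 for *CAS*, -0.50 for *IMPA2* and -0.77 for *KPNB1*. Of all 52 transport genes tested, 12 went from positive to negative and 3 from negative to positive. With the GC trend removed they were -0.023 for *NUP54*, -0.23 for *SEC13A* and -0.28 for *IMPA2*. Centring gave -0.057 for *SEC13A* and -0.085 for *IMPA2*, and quantile normalization gave 0.054 for *SEC13B* and 0.15 for *ALY1*.

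With the replicate number as a replicate block, 20 pore genes were called upregulated (16.5% of all genes in that fit). With the block and the length trend removed, 0 were (7.95%), their median was 0.35 and 2 transport genes were called upregulated. In that fit 8 pore genes were higher without the fold threshold (4337 of all 20618 genes). Libraries of the same number deviated together with correlations of 0.31, 0.08 and 0.01, against -0.22 to 0.21 for libraries of unlike number. The numbers were not taken to pair the samples. Replicate 1 of both genotypes had the largest of these correlations and also the high chloroplast signal, and whether these 2 libraries share a preparation was not tested. Under the block without length removal, *ALADIN* no longer passed (adjusted p = 0.0643, limma), while *ALY1* (0.0325) and *KPNB1* (0.0341) did, all under the fold threshold. The 3 libraries per genotype set the precision of each value.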
